A study of Mus musculus with 12 samples.

Results

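The genes described here are 10 members of the epidermal growth factor (EGF) family and its receptors, 7 ligand genes (Btc, Areg, Ereg, Hbegf, Tgfa, Egf and Nrg1) and 3 receptor genes (Egfr, Erbb2 and Erbb3). They were found by symbol among the 23479 gene symbols of a table of raw read counts, and all 10 had enough counts to be tested. They were picked from genes whose levels in these same tumours were already known, and the sources used here do not say which contrast led to the choice. The calls on them are therefore a description and not independent support.

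The counts come from bulk RNA of 12 mouse prostate tumours, 3 in each of 4 groups. In all groups, C57BL/6J mice carried tumours grown in the prostate from 100000 injected cells of PTE-82, a prostate cancer line of the mouse labelled as expressing the TMPRSS2-ERG fusion, and tumours were taken on day 17. The groups are IgG (the control), anti-CSF1 (an antibody to CSF1, a growth factor of macrophages, on days 9 and 14), Lupron (a drug that lowers testosterone through the pituitary, 0.6 mg on day 4), and Lupron/anti-CSF1, which is called the combination here. The labels do not give the age of the mice or say whether Lupron mice also received IgG. Replicates are labelled as separate samples, and no label ties them to mice, so p-values measure the spread between these samples.

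EGF family ligands are made as membrane-bound precursors, released by proteases such as Adam17 and Adam10, and bind receptor tyrosine kinases of the ERBB family on the same or neighbouring cells. EGF, amphiregulin (Areg), betacellulin (Btc), epiregulin (Ereg), TGF-alpha (Tgfa) and HB-EGF (Hbegf) bind EGFR, and neuregulins such as that of Nrg1 bind ERBB3 and ERBB4. ERBB2 has no known ligand of its own and acts as the partner of the others, and ERBB3 has little kinase activity and signals through its partner. In the prostate, EGF is a secretory product of the epithelium and is found in prostatic fluid.

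Several ligand genes lie side by side on mouse chromosome 5 (GENCODE M21, build GRCm38, to which mm10 corresponds). In order along the chromosome they are Epgn (epigen, not among the 10 genes) at 91027464 to 91035215, Ereg at 91074622 to 91093646, Areg at 91139599 to 91148432, and Btc at 91357261 to 91402994. Btc is on the minus strand and the other three are on the plus strand, and 208828 bases separate Areg from Btc with no protein-coding gene between them. The sequences just before the start sites of Areg and Btc are shown because these neighbours had the highest Pearson r of any pair of the 10 genes across tumours. Each gives the 120 bases before the RefSeq start site (GRCm38.p6), 5′ to 3′ on the gene's strand, and capitals mark matches to the cyclic AMP response element (TGACGTCA), to the GC box (GGGCGG) and to the TATA box, spelled TATAAA.
Areg, chr5:91139479-91139598, plus strand: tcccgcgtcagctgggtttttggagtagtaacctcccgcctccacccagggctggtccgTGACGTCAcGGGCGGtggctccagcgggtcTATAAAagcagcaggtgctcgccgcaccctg
Btc, chr5:91402995-91403114, minus strand: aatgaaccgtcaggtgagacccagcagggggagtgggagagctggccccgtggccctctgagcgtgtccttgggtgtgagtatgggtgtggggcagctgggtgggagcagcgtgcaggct
In the Areg promoter the first base of TGACGTCA lies 61 bases, that of GGGCGG 52 bases and that of TATAAA 31 bases before the start. In the 250 bases before the Btc start, none of the 3 motifs was matched on either strand, nor was TGANTCA, the AP-1 motif, which the Areg promoter also lacks. Of 32851 promoters of that length, 1.55% held TGACGTCA, 32.7% GGGCGG, 12.4% TATAAA and 6.75% TGANTCA. A match describes the letters only.

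Total counts per library ran from 20584363 to 29965355. Levels are CPM, read counts divided by library size and given on a common scale, with library sizes adjusted by the trimmed mean of M values, and 15082 genes were tested. Csf1r, the receptor gene of CSF1 and a macrophage marker, had 10.9 to 27.1 CPM in the 6 tumours with the antibody and 51.9 to 148 CPM in the 6 without. Erg, which endothelium also expresses, was measured in all 12 tumours (8.01 to 22.4 CPM, lowest in IgG replicate 3), and all 10 luminal epithelial markers had counts in each group. IgG replicates 2 and 3 stood apart. Their levels of luminal markers (mean of log2 CPM plus 1 over the list) were 6.48 and 7.77, against 3.69 to 5.70 in the other 10 tumours, and those of normal prostate secretory genes were 6.85 and 10.40, against 2.38 to 6.71. IgG replicates 2 and 3 were also highest for the smooth muscle list (7.91 and 9.70, at most 7.26 elsewhere) and the fat list (4.40 and 7.17, at most 4.03). The same held for basal epithelium (2.79 and 5.19, at most 2.19) and skeletal muscle (1.36 and 3.90, at most 1.13). It did not hold for the seminal vesicle, fibroblast and endothelium lists. IgG replicate 3 had 2.99 for proliferation genes, against 6.81 to 7.58 elsewhere. For all 10 members the highest or the lowest of the 12 tumours was IgG replicate 2 or 3, and for 7 it was replicate 3. Over all tested genes these shares were 72.4% and 60.5%.

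**Figure D1:**
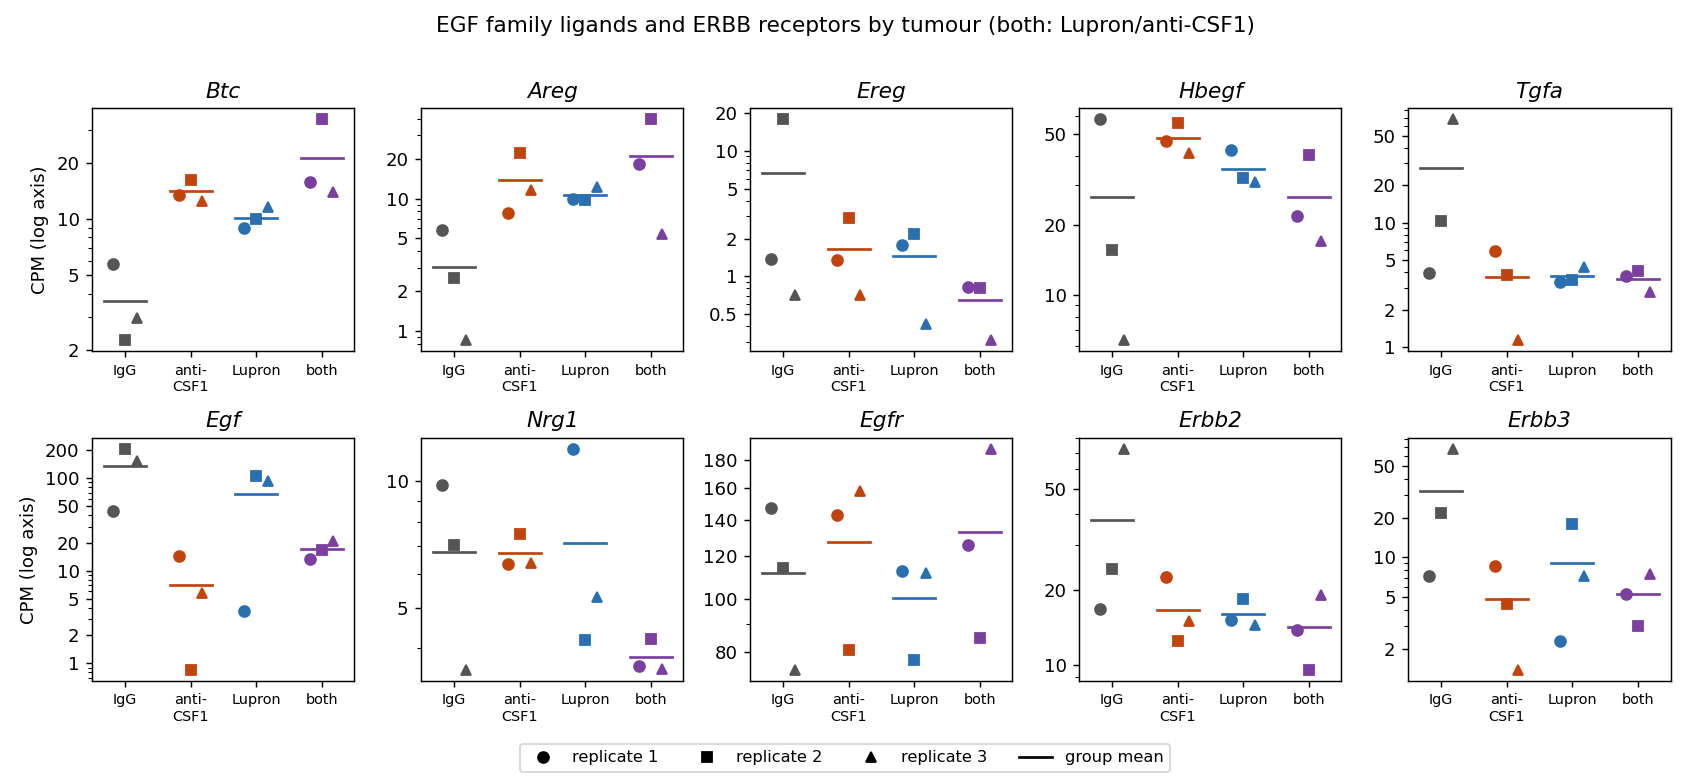
Levels of the 10 genes in each of 12 tumours, in CPM on a log axis, by treatment group; marker shapes stand for replicates and lines for group means. Btc is lowest in the 3 IgG tumours (2.25 to 5.78 CPM), and Egf spans 0.853 to 207 CPM.

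Btc was higher in the tumours that received the antibody against CSF1. Btc encodes betacellulin, a ligand of EGFR and ERBB4. Its level in replicates 1, 2 and 3 was 5.78, 2.25 and 2.96 CPM with IgG, 13.5, 16.3 and 12.4 CPM with anti-CSF1, 8.93, 9.98 and 11.6 CPM with Lupron, and 15.7, 34.2 and 14.0 CPM with the combination. All 6 tumours with the antibody lay above all 6 without it, and all 3 Lupron tumours lay above all 3 IgG tumours. The group means were 3.66 ± 1.87 CPM with IgG, 10.2 ± 1.33 with Lupron, 14.1 ± 1.97 with anti-CSF1 and 21.3 ± 11.2 with the combination (SD, n = 3 each). In that order, the ranges of anti-CSF1 and the combination overlapped, and those of the other neighbours did not.

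With the antibody effect averaged over tumours with and without Lupron, Btc rose 2.83-fold (log2 change 1.50 ± 0.29, standard error; adjusted p = 0.0266, edgeR quasi-likelihood test with Benjamini-Hochberg adjustment over all genes). It was the 1 member called of 10. Over all tested genes 1.87% were called, 0.0796% higher and 1.79% lower, and in 0.703% all 6 antibody tumours were higher than all the rest. Without Lupron the log2 change was 1.94 ± 0.42 (adjusted p = 0.0903), and with Lupron it was 1.07 ± 0.40 (adjusted p = 0.798). The difference between these effects was −0.87 ± 0.57 (adjusted p = 0.841). In bulk RNA, fewer cells of a type and less RNA per cell cannot be told apart. The macrophage list was lower with the antibody, at 4.04 to 4.75 against 5.13 to 6.91 without it, with all 12 markers having counts in each group, and its part in the Btc level was not tested.

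The Btc call changed with the tumours that entered the fit. Without both IgG replicates 2 and 3, the tumours high in luminal markers, the log2 change was 1.17 ± 0.30 and the call ended (adjusted p = 0.106, edgeR). That fit was chosen after the data were seen, and in it the 1 remaining IgG tumour is assumed to vary like the other groups. When each tumour was left out in turn, the log2 change stayed between 1.25 and 1.75, lowest without the combination's replicate 2 and highest without IgG replicate 1. The adjusted p lay between 0.00831 and 0.0807 and was under 0.05 in 4 of 12 fits, those without IgG replicate 1 (0.00831), IgG replicate 3 (0.0214), and the combination's replicates 1 (0.0439) and 3 (0.0467). The call ended without IgG replicate 2 (0.0661), without any single anti-CSF1 tumour (0.054, 0.0807 and 0.0711 for replicates 1, 2 and 3), without any single Lupron tumour (0.0604, 0.0766 and 0.071), and without the combination's replicate 2 (0.0658). Without IgG replicate 3, the tumour highest for luminal and secretory markers, the change was 1.43 ± 0.30.

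**Figure D2:**
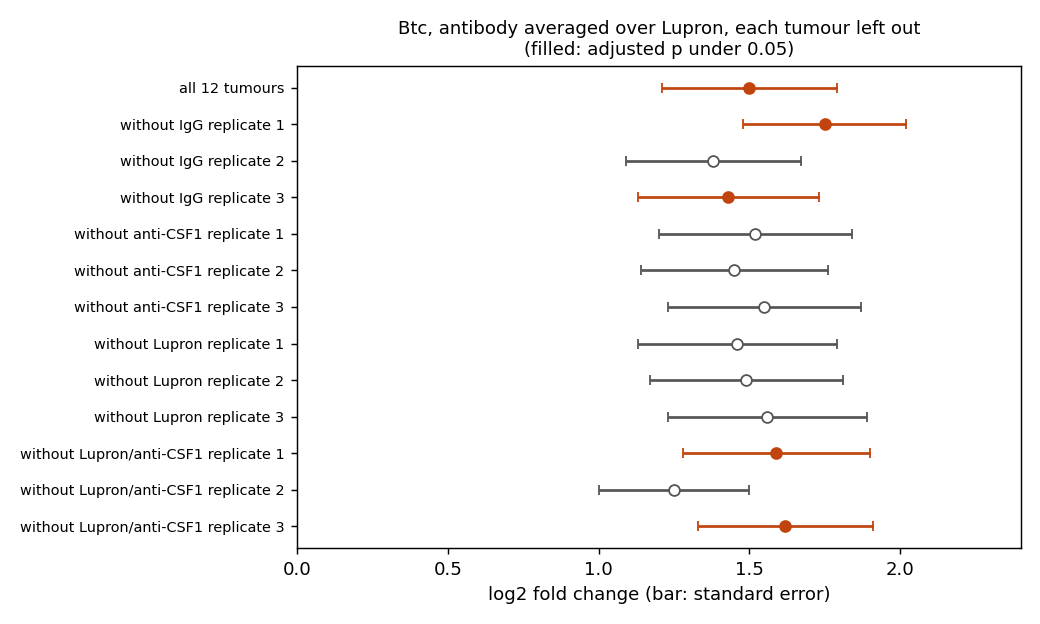
Log2 fold change of Btc for the antibody averaged over Lupron, with all 12 tumours and with each left out in turn; bars are standard errors and filled points have an adjusted p under 0.05. The estimates lie between 1.25 and 1.75, and 4 of 12 fits with a tumour left out pass.

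Areg, the gene of amphiregulin, ran close to Btc but varied more between tumours of a group. Its level in replicates 1, 2 and 3 was 5.78, 2.50 and 0.854 CPM with IgG, 7.82, 22.0 and 11.7 CPM with anti-CSF1, 9.91, 9.75 and 12.3 CPM with Lupron, and 18.3, 39.6 and 5.44 CPM with the combination. The combination held the highest tumour (replicate 2, also the highest for Btc) and 1 that lay within the IgG range. The antibody averaged over Lupron gave a log2 change of 1.58 ± 0.52 (adjusted p = 0.156), and Lupron averaged over the antibody gave 1.21 ± 0.52 (adjusted p = 0.525). Neither passed. Set against IgG, which all 3 comparisons share, Areg stood at 2.18 ± 0.76 with anti-CSF1 (adjusted p = 0.135), 1.81 ± 0.75 with Lupron (0.288) and 2.79 ± 0.77 with the combination (0.115). The IgG values rest on few reads, with 24 counts in replicate 3, the lowest of the 12 tumours.

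The other genes of the chromosome 5 group were not called with the antibody. Ereg, the gene of epiregulin, was low in most tumours: 1.37, 17.8 and 0.712 CPM with IgG, 1.36, 2.89 and 0.711 CPM with anti-CSF1, 1.79, 2.18 and 0.417 CPM with Lupron, and 0.822, 0.800 and 0.310 CPM with the combination. IgG replicate 2 alone was high, at 6.15 times the next tumour. The antibody averaged over Lupron gave −1.59 ± 0.79 (adjusted p = 0.295), and −0.26 without that tumour. The same tumour had the highest level of the list of type 2 innate lymphoid and regulatory T cell markers, 3.47 against 1.68 to 2.09 elsewhere. It was also the highest by mean log2 level for the macrophage list (6.91) and the fibroblast list (8.62). By summed level the fibroblast list was at 4644 CPM in that tumour and highest in anti-CSF1 replicate 3, at 6797 CPM. Of the 7 markers of the first list, 5 had counts in the IgG group, where Il5 and Il13 were at 0. The summed level of that list was 104, 839 and 495 CPM in IgG replicates 1, 2 and 3, though Ereg was at 0.712 CPM in replicate 3. The sum ran from 72.3 to 88.4 CPM with anti-CSF1, 73.6 to 110 CPM with Lupron and 63.2 to 118 CPM with the combination. The part of these lists in the Ereg level was not tested. Epgn, a further EGFR ligand, had no counts in IgG replicate 3 and at most 4.83 CPM in any tumour, and did not pass (antibody, 0.13 ± 0.77, adjusted p = 0.936). Its 3 Lupron tumours lay above the 3 IgG tumours (2.01 ± 1.14, adjusted p = 0.366), as 11.1% of all genes did, and its r with Btc over the 12 tumours was 0.57, and 0.38 without IgG replicate 3. The r of Ereg was −0.53 with Btc and −0.26 with Areg, and −0.72 and −0.49 without IgG replicate 3.

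Hbegf, which encodes a heparin-binding ligand, was scattered widely inside the control group. It had 57.9, 15.7 and 6.34 CPM with IgG, 46.8, 55.9 and 41.2 CPM with anti-CSF1, 42.5, 32.2 and 30.8 CPM with Lupron, and 22.1, 40.5 and 17.2 CPM with the combination. IgG thus held the highest and the lowest tumour. The combination lay below anti-CSF1 without overlap (log2 change −0.85 ± 0.62, adjusted p = 1), where 5.22% of all genes were lower without overlap. The averaged antibody effect was 0.22 ± 0.44 (adjusted p = 0.788).

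Tgfa, the gene of TGF-alpha, was highest in IgG replicate 3. It had 3.96, 10.3 and 67.9 CPM in IgG replicates 1, 2 and 3, and 1.14 to 5.99 CPM in the other 9 tumours. The group means outside IgG were 3.64 ± 2.43, 3.75 ± 0.609 and 3.54 ± 0.702 CPM with anti-CSF1, Lupron and the combination. The averaged antibody effect was −1.50 ± 0.61 (adjusted p = 0.224), and −0.52 without IgG replicate 3. Against IgG the log2 changes were −2.91 ± 0.90 with anti-CSF1, −2.87 ± 0.90 with Lupron and −2.95 ± 0.91 with the combination (adjusted p = 0.109, 0.284 and 0.116). Without IgG replicate 3 they were −0.96, −0.92 and −1.01.

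Egf had the widest range of the 10 genes, 243-fold between tumours. It had 44.1, 207 and 152 CPM with IgG, 14.5, 0.853 and 5.69 CPM with anti-CSF1, 3.65, 105 and 92.7 CPM with Lupron, and 13.5, 16.9 and 20.8 CPM with the combination. Each antibody tumour was lower than every IgG tumour and lower than 2 of the 3 Lupron tumours, and Lupron replicate 1 was the exception. Of all genes, 12.8% were lower without overlap for anti-CSF1 against IgG and 12.7% for the combination against IgG. The averaged antibody effect was −3.11 ± 0.79 (adjusted p = 0.0805) and did not pass. Over the 12 fits that each left out a tumour it lay between −3.65 and −2.85, and it passed without IgG replicate 1 or Lupron replicate 1. Without both IgG replicates 2 and 3, the tumours highest for Egf, it was −2.31. Anti-CSF1 against IgG gave −4.25 ± 1.18 (adjusted p = 0.0943), the combination against IgG gave −2.98 ± 1.11 (0.141), and the combination against Lupron gave −1.98 ± 1.07 (1).

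The order of tumours by Egf was close to that by normal prostate secretory genes. IgG replicates 2 and 3 and Lupron replicates 2 and 3 were the 4 highest for both, and anti-CSF1 replicates 2 and 3 and Lupron replicate 1 were the 3 lowest for both. The list (Pbsn, Sbp, Msmb, Tgm4, Spink1 and Pigr) was at 4.93 to 10.40 with IgG, 2.38 to 4.88 with anti-CSF1, 2.44 to 6.71 with Lupron and 5.20 to 5.54 with the combination, with Msmb at 0 in the anti-CSF1 group. The summed level of its 6 genes ran from 2403 to 58400 CPM with IgG and from 99.96 to 1191 CPM with anti-CSF1. It ran from 138 to 11870 CPM with Lupron and from 1452 to 1875 CPM with the combination. The part of such tissue in the Egf level was not tested.

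**Figure D3:**
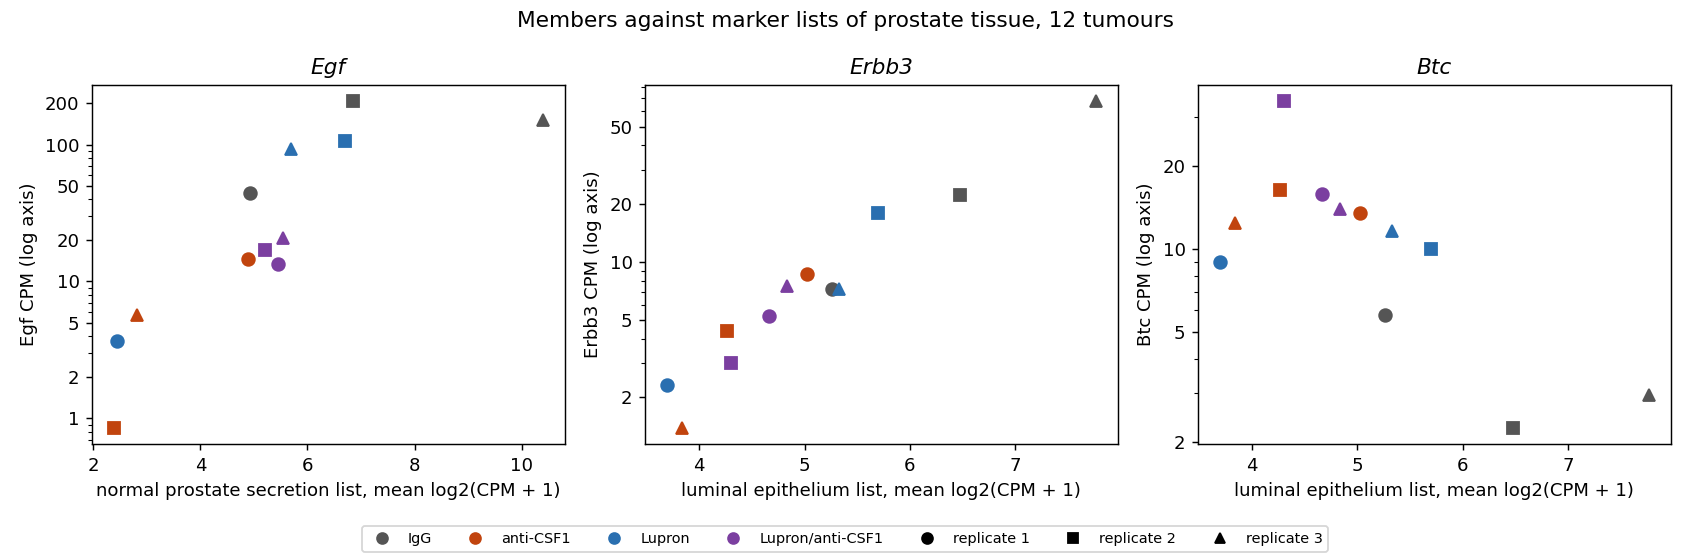
Egf, Erbb3 and Btc in CPM (log axis) against the mean log2(CPM + 1) of a marker list, in 12 tumours; colours are groups and shapes are replicates. IgG replicates 2 and 3 lie at the right of each panel, high for Egf and Erbb3 and low for Btc.

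Nrg1, the gene of the ligand of ERBB3 and ERBB4, was lowest as a group with the combination. It had 9.78, 7.05 and 3.56 CPM with IgG, 6.36, 7.49 and 6.40 CPM with anti-CSF1, 11.9, 4.19 and 5.32 CPM with Lupron, and 3.64, 4.21 and 3.58 CPM with the combination. The 3 combination tumours lay below the 3 anti-CSF1 tumours (−0.82 ± 0.45, adjusted p = 1), as 5.22% of all genes did, and overlapped Lupron (−0.91 ± 0.45, adjusted p = 1) and IgG (−0.83 ± 0.45, adjusted p = 0.252). The averaged antibody effect was −0.46 ± 0.31 (adjusted p = 0.429). Of the other neuregulin genes, Nrg2 and Nrg4 were highest in IgG replicate 3, at 7.48 and 8.12 CPM, with 0 to 1.88 and 0 to 3.05 CPM elsewhere, and Nrg3 had 2 counts in all 12 tumours together.

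Egfr spanned the smallest range of the 10 genes over the 12 tumours. It encodes the receptor of most of these ligands. It had 147, 114 and 74.2 CPM with IgG, 143, 80.6 and 158 CPM with anti-CSF1, 113, 77.3 and 112 CPM with Lupron, and 126, 84.8 and 189 CPM with the combination. The tumours spanned 2.54-fold and all 4 groups overlapped. Without IgG replicates 2 and 3 it spanned 2.44-fold, and Erbb2 2.33-fold. The averaged antibody effect was 0.30 ± 0.25 (adjusted p = 0.519) and that of Lupron −0.04 ± 0.25 (0.951).

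The partner receptors Erbb2 and Erbb3 were high in IgG replicate 3 and lower elsewhere. Erbb2 had 16.8, 24.2 and 72.4 CPM in IgG replicates 1, 2 and 3 and 9.60 to 22.4 CPM in the other 9 tumours. Its averaged antibody effect was −0.68 ± 0.34 (adjusted p = 0.3), and −0.24 without IgG replicate 3. Without that tumour the combination stood at −0.53 against IgG, against −1.41 ± 0.49 (adjusted p = 0.127) with it.

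Erbb3 had 7.23, 22.0 and 67.6 CPM with IgG, 8.61, 4.41 and 1.39 CPM with anti-CSF1, 2.30, 17.9 and 7.23 CPM with Lupron, and 5.24, 2.99 and 7.47 CPM with the combination. The 3 highest tumours, IgG replicates 3 and 2 and Lupron replicate 2, were also the 3 highest for luminal markers. Its averaged antibody effect was −1.77 ± 0.64 (adjusted p = 0.185), and −1.20 without IgG replicate 3 and −0.69 without both IgG replicates 2 and 3. The luminal list, 10 of 10 with counts in each group, summed to 510 to 2954 CPM with IgG, 261 to 473 CPM with anti-CSF1, 203 to 646 CPM with Lupron and 314 to 405 CPM with the combination. By mean log2 level the nerve and Schwann cell list was also highest in IgG replicate 3, at 3.11 against 1.67 to 2.32 elsewhere. Its summed level was 199.5 CPM in that tumour and highest in anti-CSF1 replicate 3, at 272.6 CPM. The part of either list in the Erbb2 and Erbb3 levels was not tested. Erbb4, the remaining receptor gene, had 14.2 CPM in IgG replicate 3 and 0 to 0.543 CPM in the other tumours, with no counts in the anti-CSF1 group.

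Levels of different genes can be compared only per length, for which the union of exons in GENCODE M21 was used. In mean CPM per kilobase (SD over 3 tumours), the order of the ligands in IgG tumours was Egf (11.9 ± 7.35), Hbegf (5.51 ± 5.68), Tgfa (4.22 ± 5.43), Areg (2.51 ± 2.07), Ereg (1.60 ± 2.34), Btc (0.811 ± 0.413) and Nrg1 (0.657 ± 0.301). With the combination Areg led (17.4 ± 14.2), followed by Hbegf (5.50 ± 2.55), Btc (4.71 ± 2.48), Egf (1.51 ± 0.326), Tgfa (0.545 ± 0.108), Nrg1 (0.368 ± 0.0338) and Ereg (0.156 ± 0.0701). The spreads in IgG tumours are as large as most gaps between neighbours in that order. Of the receptors, Egfr had 9.87 ± 3.23, Erbb2 7.25 ± 5.79 and Erbb3 5.37 ± 5.23 with IgG, where the spreads are as large as the gaps. With the combination Egfr had 11.8 ± 4.62, Erbb2 2.72 ± 0.908 and Erbb3 0.870 ± 0.373.

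**Figure D4:**
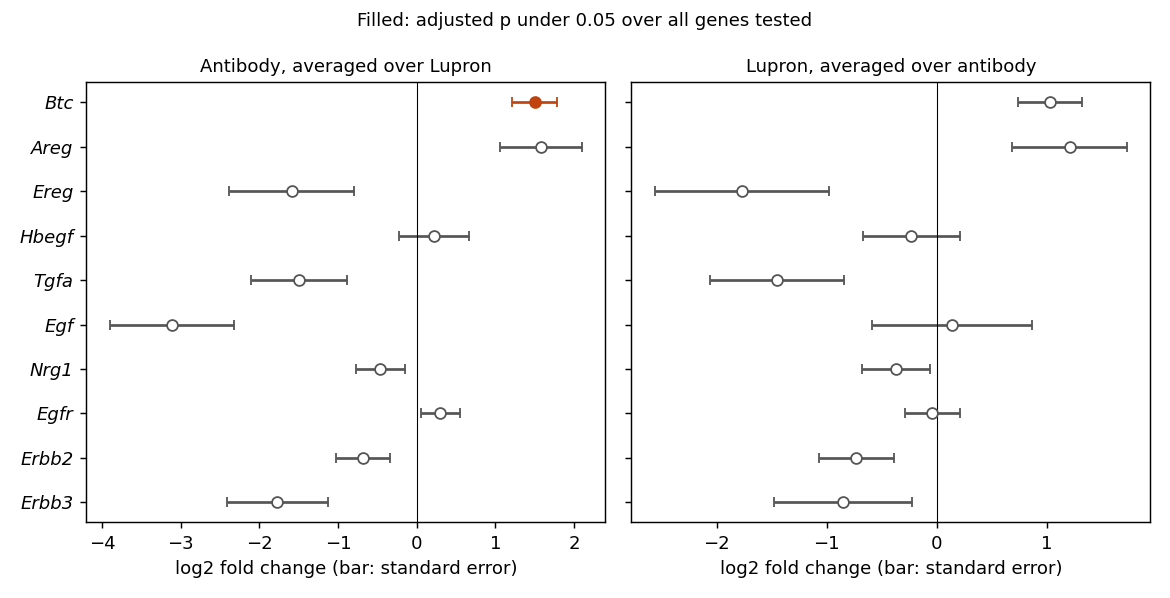
Log2 fold changes with standard errors for the 10 genes, left for the antibody averaged over Lupron and right for Lupron averaged over the antibody. Btc at 1.50 on the left is the 1 filled point (adjusted p under 0.05), and on the right no point is filled.

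For Lupron averaged over the antibody, no member was called by the edgeR test, where 0% of all genes were called. At an unadjusted p under 0.05 there were 4 members (Btc, Areg, Ereg and Tgfa), where 9.06% of all genes reached it, and DESeq2 called 0 members and 0.0576% of all genes. Btc had the smallest p of these, at 1.03 ± 0.29 (2.05-fold, adjusted p = 0.525). Ereg was at −1.77 ± 0.79 and Tgfa at −1.45 ± 0.61 (adjusted p = 0.525 each), and these moved to −0.44 without IgG replicate 2 and −0.48 without IgG replicate 3. The others were Hbegf (−0.23 ± 0.44), Egf (0.14 ± 0.73), Nrg1 (−0.37 ± 0.31), Egfr (−0.04 ± 0.25), Erbb2 (−0.73 ± 0.34) and Erbb3 (−0.85 ± 0.63).

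The 10 genes had a median log2 change of −0.57 for the antibody averaged over Lupron, against 0.02 over all tested genes, with 4 positive and 6 negative. At an unadjusted p under 0.05 stood 5 members, Btc, Areg, Tgfa, Egf and Erbb3, where 19% of all genes did, and DESeq2 called 4, Btc and Areg higher and Egf and Erbb3 lower, where it called 9.33% of all genes. For the difference between the antibody effects with and without Lupron, edgeR and DESeq2 called 0 members (0% and 1.35% of all genes). By edgeR 1 member, Tgfa (2.82 ± 1.22, adjusted p = 0.714), had an unadjusted p under 0.05, as did 6.77% of all genes. Without IgG replicate 3 the Tgfa estimate was 0.88.

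In comparisons of single groups, edgeR called 0 members. Against IgG, 0.00663% of all genes were called with anti-CSF1, 0% with Lupron and 0.00663% with the combination, while 6, 4 and 7 members had an unadjusted p under 0.05 (22.8%, 16.4% and 26% of all genes) and DESeq2 called 5, 2 and 7 members, where it called 11.9%, 2.78% and 13.1% of all genes. These 3 comparisons share the IgG tumours. Btc stood at 1.94 ± 0.42, 1.47 ± 0.41 and 2.54 ± 0.42 in them (adjusted p = 0.0903, 0.284 and 0.0899) without overlap with IgG in any, where 11.1%, 11.1% and 15.1% of all genes were higher without overlap. Erbb3 stood at −2.75 ± 0.94 with anti-CSF1 and −2.62 ± 0.94 with the combination (adjusted p = 0.132 and 0.134), and Ereg at −3.36 ± 1.18 with the combination (0.13). Without IgG replicate 3 those of Erbb3 were −1.60 and −1.48, and without IgG replicate 2 that of Ereg was −0.69. For the combination against Lupron and against anti-CSF1, edgeR called 0% of all genes, DESeq2 called 0 members (1.46% and 0.0314% of all genes), and 1 and 0 members had an unadjusted p under 0.05 (4.26% and 1.95% of all genes). In the first, Btc was higher without overlap, as were 5.86% of all genes, while Areg (0.98 ± 0.72) and Hbegf (−0.40 ± 0.62) overlapped. In the second, Btc was at 0.60 ± 0.40 (adjusted p = 1).

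Across the 12 tumours some pairs of members rose and fell together and others were opposed. Tumours differ in treatment and tissue content, so these correlations of log2(CPM + 1) are a description. Btc and Areg had the highest Pearson r of any pair of members, 0.90 (Spearman rho 0.76), and 0.87 without IgG replicate 3. By rho, Egf with Erbb3 (0.82) and Erbb2 with Erbb3 (0.81) were closer than Btc with Areg. Areg and Erbb2 were opposed, with r = −0.90 and rho = −0.97, and −0.92 and −0.95 without that tumour. Erbb3 went with Egf (0.79, and 0.79 without IgG replicate 3) and with Erbb2 (0.85, and 0.69 without it). The r of Tgfa with Erbb2, 0.87, was 0.42 without IgG replicate 3, and that of Hbegf with Tgfa went from −0.75 to −0.29. Egfr had no r with another member beyond −0.49 in the 12 tumours.

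**Figure D5:**
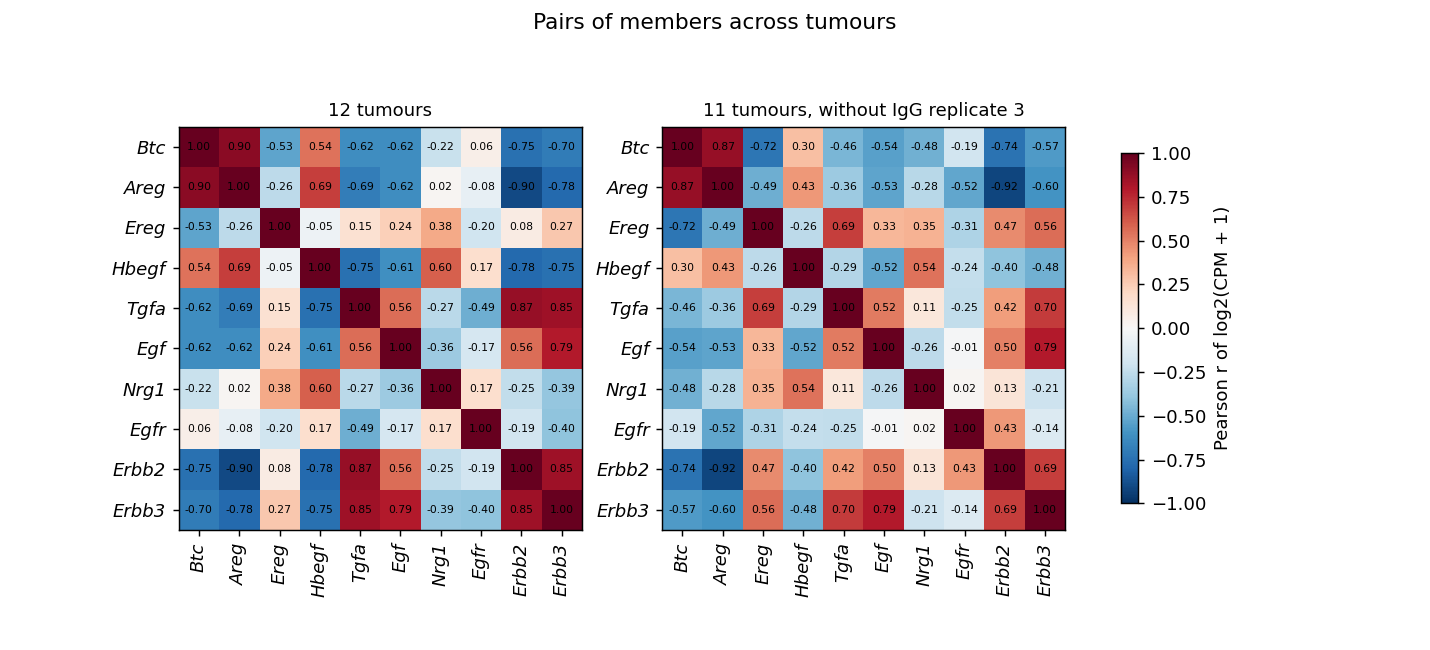
Pearson r of log2(CPM + 1) between each pair of the 10 genes over 12 tumours (left) and over 11 without IgG replicate 3 (right). Btc and Areg stay at 0.90 and 0.87, and Tgfa with Erbb2 goes from 0.87 to 0.42.

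The genes outside the family whose levels were most like each member differed between members. For Egf these included Agr2 (r = 0.988), which encodes a protein of the secretory pathway, and Sel1l3 (0.982). For Erbb3 they were Esrp1 (0.992), Reps2 (0.992) and Lsr (0.991). Esrp1 is an epithelial splicing factor and Lsr a protein of epithelial junctions. For Btc they were Chordc1 (0.983), Ubxn8 (0.957) and Itfg1 (0.955), and for Areg Scn8a (0.982), Pole4 (0.969) and Hist1h4i (0.962). For Hbegf they included Pbp2 (0.963) and Nes (0.940), which encodes the intermediate filament nestin. For Egfr the nearest was Erc1 (0.941), for Erbb2 Myo1d (0.981), for Tgfa Ctage5 (0.968), for Nrg1 Cxcl3 (0.867) and for Ereg Rhox5 (0.943). Without IgG replicate 3 the r for these 5 were 0.936, 0.924, 0.893, 0.848 and 0.943. That of Ereg was computed with IgG replicate 2, its single high tumour, and the Spearman rho with Rhox5 was 0.713.

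Genes that release the ligands or carry and damp the receptors' signal did not pass in any of the 8 comparisons by edgeR. Of the 10 tested genes of ligand release, 9 had a positive and 1 a negative estimate for the averaged antibody effect, with a median of 0.29, and the smallest p was that of the protease gene Adam10 (0.54 ± 0.20, adjusted p = 0.18). Adam10 had 331 ± 115, 481 ± 67.1, 380 ± 84.5 and 556 ± 44.8 CPM with IgG, anti-CSF1, Lupron and the combination. The 28 genes from receptor adaptors to ERK and PI3K had a median of 0.03, against 0.02 over all tested genes, with Pik3cb, a catalytic PI3K subunit, at −0.48 ± 0.17 (0.176) and the adaptor Nck2 at 0.77 ± 0.28 (0.186).

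Of the 19 negative regulators, 14 had positive estimates, the median was 0.42, and 7 had an unadjusted p under 0.05, where 19% of all genes did. Among them Rnf41, a ubiquitin ligase that acts on ERBB3, was at 0.48 ± 0.15 (adjusted p = 0.138) and the ERK phosphatase Dusp4 at 0.75 ± 0.25 (0.156). Of the 10 transcripts known to rise with ERK activity, 9 had positive estimates with a median of 0.31, against 0.02 over all tested genes. Ier3 had the smallest p of these (1.44 ± 0.41, adjusted p = 0.114), with 29.8 ± 24.7, 133 ± 43.1, 49.5 ± 2.28 and 82.1 ± 59.3 CPM with IgG, anti-CSF1, Lupron and the combination. In these 4 lists 1, 2, 7 and 1 genes had an unadjusted p under 0.05, and with the family genes outside the 10 DESeq2 called 3, Ier3 and Rnf41 higher and Erbb4 lower, where it called 9.33% of all genes.

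In the averaged Lupron effect the 4 lists had medians of −0.10, −0.11, 0.04 and −0.13, where 1, 3, 1 and 0 genes reached an unadjusted p under 0.05, and edgeR and DESeq2 called 0. The smallest p in each were those of Timp3, an inhibitor of ligand-releasing proteases (−0.41 ± 0.17), the kinase gene Braf (−0.51 ± 0.22), Spred2, an inhibitor of ERK signalling (−0.41 ± 0.18), and Phlda1 (−0.43 ± 0.20), each with an adjusted p of 0.525.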

How the data were processed

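Bulk RNA-seq counts of 12 tumours were used. Per the submitters' processing notes, the authors used bcl2fastq 2.20.0.422, cutadapt 1.8.1, HTSeq 0.6.1 and build mm10. For the aligner, annotation and strand setting, no source used here gives a name. NuGen Ovation Mouse RNA-Seq was the library kit, per the labels' protocols. The deposited values are raw counts per gene symbol, with no normalization by the authors, and every column matched a sample's label.

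The analysis used R 4.3.3 and edgeR 4.0.16, with edgeR's filter on low counts, TMM factors, 1 mean per group over all 12 libraries and robust quasi-likelihood F tests, two-sided. Benjamini-Hochberg adjustment ran over all 15082 genes tested, and calls have an adjusted p under 0.05. Exact permutation of 3 against 3 tumours cannot give a p under 0.1. The fit was tested on simulated data for the averaged antibody effect. DESeq2 1.42.0, RLE and upper-quartile factors, other filters, a replicate block, fits to the compared groups and fits without each library were the alternatives. A fit without both IgG replicates 2 and 3 was added after seeing the data.

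All 10 members are named, and the 5 other family genes. From 5 pathway lists (73 genes, 72 in the table) up to 4 called genes, or else the 2 with the smallest p, were eligible. For each member the 3 genes with the highest Pearson r were taken, some of which are not reported here. There were 17 marker lists with 117 genes, and 3 listed symbols were matched by an older name. Members and lists were chosen with earlier results of these data known. Positions come from GENCODE M21 and promoter sequences from RefSeq (GRCm38.p6).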

Additional observations from a re-analysis of the deposited data

How the results depend on the processing

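For the antibody averaged over Lupron, 1 member was called, and the DESeq2 Wald test called 4 and the fit with a replicate block 0, where Btc stood at 1.47 (adjusted p = 0.0757). Without both IgG replicates 2 and 3, chosen after seeing the data, 0 members were called and Hbegf stood at −0.34. Of 18 pairs of tumours with equal replicate numbers, 7 had a correlation of deviations from their group means over 0.1 (range −0.32 to 0.34). Pairs with unequal numbers ran from −0.51 to 0.43. These values do not settle whether equal numbers pair the tumours. Leaving out a tumour gave 0 to 3 called members in that comparison, 0 to 7 for anti-CSF1 against IgG, 0 to 2 for Lupron against IgG and 0 to 5 for the combination against IgG, the highest count each time without IgG replicate 1, which leaves both IgG tumours high in luminal markers. Without that tumour 10.1%, 16.8%, 4.19% and 14.2% of all genes were called in these 4 comparisons. DESeq2 called 5, 2 and 7 members in the last 3, where edgeR called 0. Of the pathway genes edgeR called 0; DESeq2 called 3 for the averaged antibody effect, 6 for anti-CSF1 and 4 for the combination against IgG, and leaving out a tumour gave 0 to 11, 0 to 19, 0 to 2 (Lupron) and 0 to 14 of 71, the highest again without IgG replicate 1. Some estimates near 0 changed sign: the averaged Lupron effect on Egf was −0.05 with the replicate block and −0.12 to 0.69 without each tumour, that on Egfr −0.21 to 0.08 and that on Hbegf −0.46 to 0.41, and the averaged antibody effect on Hbegf was −0.01 to 0.87. The cause was not tested. The other scalings, filters and fits to the compared groups changed none of these counts of called members, and no group mean of a member moved by more than its SD. Ereg and the IgG values of Areg rest on few counts, which limits their precision.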
